A study of Mus musculus with 7 samples.

Results

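The 4 libraries described here are the wild-type ones of a series of 7 brain RNA libraries, chosen by the genotype their labels give. They came from 2 male and 2 female C57BL/6 mice whose age is labelled postnatal day 0, and no allele or agent is named for them. The other 3 libraries came from heterozygous Setd2SRI/wt mice, which carry R2483H in the histone methyltransferase gene Setd2, and no difference between genotypes is described here. The labels give the tissue as brain with no region and describe no pooling. The labels call the animals littermates without naming the litter of each, so p-values reflect only how far these libraries differ among themselves. Total RNA was depleted of ribosomal RNA, so transcripts without a poly(A) tail could be read. Total gene counts were 15924237 and 4192021 in the males and 16064644 and 14838099 in the females. CPM is a gene's count divided by its library's total and multiplied by 1000000. TPM also divides by the gene's exon length and is the main scale used here to compare one gene with another. Where genes are compared in CPM, their length is not accounted for. A mean is given with its SD over the 4 libraries (n = 4), which pools both sexes, while a fold change is given with the standard error of its fit. Setd2 itself stood at 98.6 and 97.6 CPM in the males and 106 and 115 CPM in the females.

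A mouse brain on the day of birth is known as a tissue in which neurons are still being made and wired. Dividing progenitors line the ventricles, new neurons express cytoskeletal genes of outgrowth such as Dcx, and oligodendrocytes have barely begun to make myelin. Myelination, synapse maturation and the change of several receptor and transporter subunits follow over the weeks after birth. The profile of these libraries went against the age on the label on most of these points. Among nuclear genes ranked by TPM the myelin gene Mbp stood at place 29, while genes of mitosis were low. Myelin basic protein (Mbp) reached 1531 and 1016 TPM in the males and 1138 and 1057 TPM in the females. Neurogranin (Nrgn), a calmodulin-binding protein of mature forebrain neurons, reached 2024 and 1809.8 TPM in the males and 2157 and 1607 TPM in the females. The values of males and females overlapped for Mbp and Nrgn.

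Several genes of immature tissue lay at the other end of the scale. Mki67, which marks dividing cells, stood at 0.674 and 0.846 TPM in the males and 0.909 and 0.663 TPM in the females. Top2a, a topoisomerase of dividing cells, stood at 0.852 and 0.378 TPM in the males and 0.532 and 0.714 TPM in the females, and the mitotic kinase Cdk1 averaged 0.257 ± 0.229 TPM. Not all genes of dividing cells were this low. Pcna, the clamp of DNA replication and repair, averaged 46.5 ± 2.62 TPM, and Mcm6 and Mcm5, of the replicative helicase, averaged 5.52 ± 0.249 TPM and 3.36 ± 1.08 TPM. Of the list 11 of 16 members had a mean CPM of at least 1, or 68.8%, a share near the 63.3% of all protein-coding genes. The median over all 16 members was 1.18 TPM, against 6.29 TPM over all protein-coding genes. The growth factor Igf2, made in quantity by fetal vessels and meninges, stood at 0.474 and 0.744 TPM in the males and 1.07 and 0.541 TPM in the females, and the fetal noncoding RNA H19 averaged 0.178 ± 0.119 TPM. Collagen Col3a1 averaged 0.980 ± 0.251 TPM. The embryonic globin Hba-x had no count in any of the 4 libraries, where 3 counts would be 0.188 and 0.716 CPM in the males and 0.187 and 0.202 CPM in the females. Another embryonic globin, Hbb-y, stood at 0 and 1.35 TPM in the males and 0.344 and 0.753 TPM in the females. Doublecortin (Dcx) stood at 16.6 and 17.5 TPM in the males and 11.2 and 17.1 TPM in the females. Rbfox3, a splicing factor of mature neurons, stood at 170.2 and 160.1 TPM in the males and 150.3 and 143 TPM in the females, above Dcx in every library.

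The mutant libraries had both features as well, with Mbp at 2412 to 3128 CPM, Nrgn at 1085 to 1173 CPM and Mki67 at 1.37 to 3.49 CPM. On the same CPM scale, the wild-type libraries had Mbp at 2409 to 3605, Nrgn at 660 to 895 and Mki67 at 1.88 to 2.61. The libraries are therefore called by their label, wild type labelled postnatal day 0, with no age drawn from the data. What lies behind the difference between label and profile was not tested. The plot of marker levels by library shows the separation between both sets of genes.

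**Figure D1:**
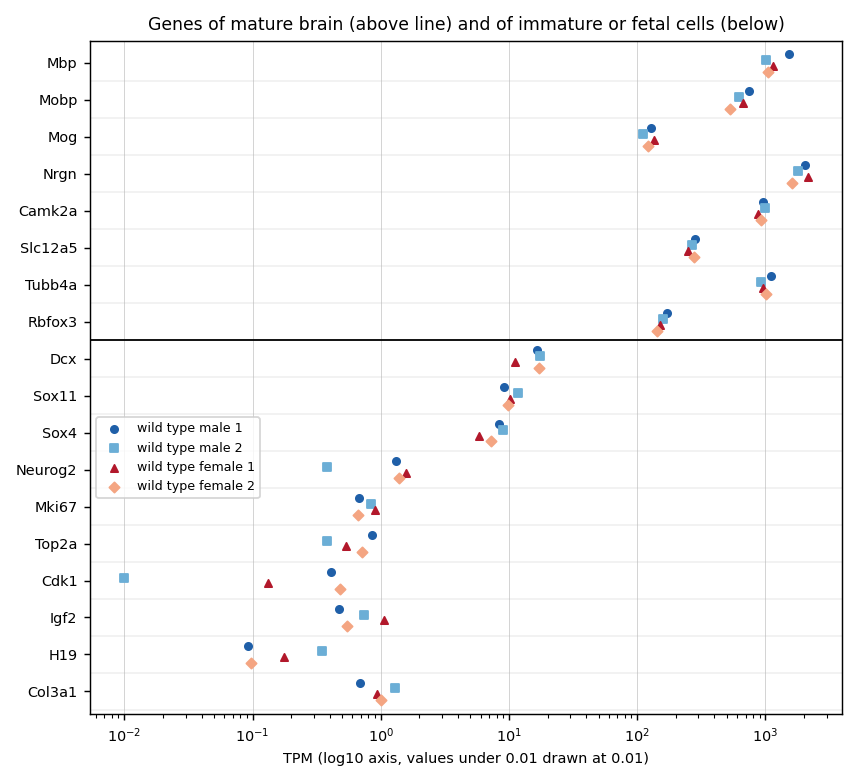
TPM on a log10 axis of genes of mature brain (upper rows) and of dividing, immature or fetal cells (lower rows), with 1 point per wild-type library and values under 0.01 TPM drawn at 0.01. Mbp averaged 1185 TPM, while Mki67 averaged 0.773 TPM.

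Oligodendrocytes wrap axons in myelin and arise from precursors that divide. The list of 12 myelinating oligodendrocyte genes summed to 8417 and 6246 CPM in the males and 7273 and 6344 CPM in the females, and the first male was the highest. All 12 of 12 members had a mean CPM of at least 1. Mobp, a protein of compact myelin, stood at 747 and 618 TPM in the males and 663 and 529 TPM in the females. Mal, a membrane protein of myelin, averaged 357 ± 57.0 TPM. Cnp, an enzyme of the oligodendrocyte cytoplasm, averaged 279.8 ± 15.3 TPM. The list thus ran from those levels down to 17.1 ± 3.32 TPM for Gal3st1, the enzyme that makes the myelin lipid sulfatide. The surface proteins Mag and Mog averaged 144 ± 17.9 TPM and 123 ± 10.2 TPM. Precursor genes were lower but present. Pdgfra, the receptor that drives precursor division, stood at 19.8 and 22.7 TPM in the males and 19.3 and 27.6 TPM in the females, and Gpr17, of cells between precursor and myelinating stages, averaged 33.6 ± 3.59 TPM. Olig1 and Olig2, bHLH factors of the whole lineage, averaged 143 ± 15.3 TPM and 43.2 ± 5.43 TPM, and their partner Sox10 averaged 41.0 ± 7.78 TPM.

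The promoter of Mobp is shown because this myelin gene stood at 639 ± 90.8 TPM and its window is rich in the letters CTTTGT, the core that SOX factors such as Sox10 bind. RefSeq's window on GRCm38.p6 runs from 250 bases before to 50 bases after the start, at chr9:120149492-120149791 on the plus strand, and the capitals mark CTTTGT.
Mobp: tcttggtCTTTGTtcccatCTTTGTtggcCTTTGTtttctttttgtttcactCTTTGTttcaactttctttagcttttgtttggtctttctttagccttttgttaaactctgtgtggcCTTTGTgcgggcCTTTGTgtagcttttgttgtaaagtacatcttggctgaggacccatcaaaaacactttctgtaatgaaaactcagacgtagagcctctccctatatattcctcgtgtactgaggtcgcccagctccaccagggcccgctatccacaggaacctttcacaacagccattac
The window held 6 copies on both strands together. Of the 16521 protein-coding genes with such a window, 1 held 6 or more, and that was Mobp, while 16.7% held at least 1. A match of letters is a description and shows no binding.

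Several pairs of related genes are known to change places as the brain matures, and their ratio within a library does not depend on library depth. Ratios are log2 of the first gene over the second, from TPM with a pseudocount of 0.1. Slc12a2 over Slc12a5, the cotransporters that load and extrude chloride, was -2.46 and -2.65 in the males and -2.23 and -2.48 in the females. Tubb2b over Tubb4a, beta tubulins of growing neurites and of the mature brain, was -3.16 ± 0.17. Scn3a over Scn1a, sodium channels of embryonic and later neurons, was -1.84 and -1.62 in the males and -1.91 and -1.46 in the females. These 3 ratios were negative in every library and far outside the spread between libraries.

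Dcx over Rbfox3 was -3.33 ± 0.30, and Slc17a6 over Slc17a7, vesicular glutamate transporters of subcortical and cortical neurons, was -2.21 ± 0.34. Pdgfra over Mog was -2.47 ± 0.32 per length but 0.081 with counts not divided by length. The synaptic scaffolds Dlg3 over Dlg4 gave -0.64 ± 0.09. The insulin-like growth factors Igf2 over Igf1 gave -2.87 ± 0.57. Each of these ratios was below 0 per length in 4 of 4 libraries. The NMDA receptor subunits did not all run 1 way. Grin2d over Grin2c gave -1.19 ± 0.35 and Grin3a over Grin2a gave -1.10 ± 0.43, each below 0 in 4 of 4 libraries, while Grin2b over Grin2a was above 0 in all 4. Grin2b, the subunit of early synapses, stood at 63.7 and 67.1 TPM in the males and 61.3 and 52.3 TPM in the females. Grin2a, the later subunit, stood at 32.8 and 31.2 TPM in the males and 32.6 and 25.2 TPM in the females, and the ratio of Grin2b over Grin2a was 1.00 ± 0.09. Ptbp2 over Ptbp1, splicing repressors of neurons and of other cells, was 1.31 ± 0.22. Gria2 over Gria1, AMPA receptor subunits, was -0.17 ± 0.11 per length and 1.19 with counts not divided by length.

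Some of the other pairs varied more between libraries than most of the set did. Glra2 over Glra1, alpha subunits of the glycine receptor, was -0.25 and 0.82 in the males and 2.07 and 0.47 in the females, and Glra1 stood at 15.1 and 6.68 CPM in the males and 3.42 and 13.6 CPM in the females. The first male thus differed in sign from the other 3 libraries. Fabp7 over Aqp4, genes of radial glia and of astrocyte endfeet, was -0.19 and 0.35 in the males and -0.72 and -0.79 in the females, with the second male the only library above 0. Lin28a, a regulator of let-7 in early embryos, averaged 0.0550 ± 0.0771 TPM, and its relative Lin28b averaged 5.52 ± 1.15 TPM. Map1b over Map2, microtubule-associated proteins of axons and dendrites, was -0.24 and -0.44 in the males and -0.44 and -0.42 in the females. Its SD was small, at 0.095.

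**Figure D2:**
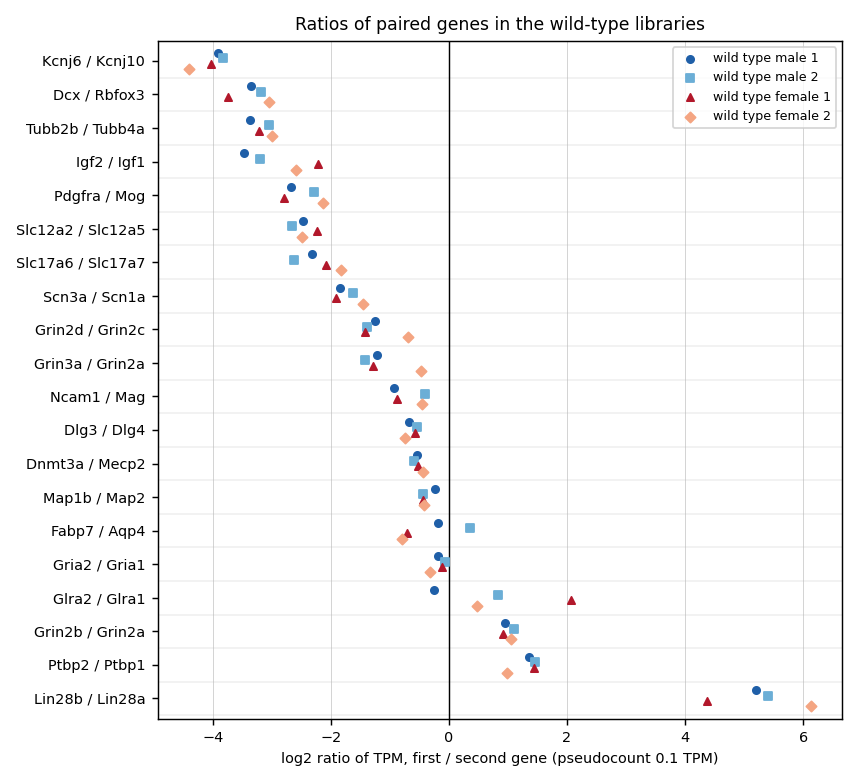
log2 ratio of TPM (pseudocount 0.1) of the first over the second gene of 20 of the 24 pairs, with 1 point per wild-type library and the 2 globin pairs left out for scale. Pairs to the left of 0 had the second gene higher, as Slc12a2 over Slc12a5 and Tubb2b over Tubb4a did in all 4 libraries.

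The reads spread over many genes. Of 55536 genes in the table, 32005 had a count in at least 1 wild-type library, 15858 had a mean CPM of at least 1 and 56 had a mean CPM of at least 1000. The highest genes that together held 50% of all counts numbered 1109 and 1095 in the males and 1086 and 1134 in the females. Of all counts, protein-coding genes of the nucleus took 90.1 and 89.8% in the males and 89.4 and 89.1% in the females. The mitochondrial genome, whose transcripts encode subunits of the respiratory chain, took 7.36 and 7.77% in the males and 7.95 and 7.95% in the females. Long intergenic noncoding RNAs (lincRNA) took 1.48 and 1.44% in the males and 1.58 and 1.85% in the females. The second female had the largest lincRNA share and the smallest share of nuclear protein-coding genes. Every other nuclear class together took 1.06% ± 0.0453 of counts. The share of counts in the 100 genes of highest mean CPM was 19.1 and 19.3% in the males and 19.5 and 19.3% in the females, a spread of less than 1 percentage point.

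Of the 13 protein-coding genes of the mitochondrial genome 7 had a mean CPM of at least 1000. The cytochrome oxidase subunit mt-Co1 was the highest gene by CPM, at 19992 and 21916 CPM in the males and 18882 and 20198 CPM in the females. Cytochrome b, mt-Cytb, averaged 11752 ± 659 CPM, and the complex I subunit mt-Nd1 averaged 9448 ± 886 CPM. Other genes of the same genome were far lower in CPM, which is not divided by length. The oxidase subunit mt-Co3 stood at 57.0 and 19.1 CPM in the males and 72.6 and 66.9 CPM in the females, and mt-Co2 averaged 161 ± 38.7 CPM. The ATP synthase subunit mt-Atp6 stood at 397 and 39.8 CPM in the males and 323 and 226 CPM in the females. These low values are uncertain because nuclear pseudogenes nearly identical to the mitochondrial genome also held counts, and no source used here states how multiply matching reads were counted. Gm28661, such a pseudogene on chromosome 1, stood at 184 and 33.9 CPM in the males and 39.2 and 43.9 CPM in the females, high in the first male. Gm13340, on chromosome 2, stood at 55.1 and 52.7 CPM in the males and 225 and 242 CPM in the females, high in both females.

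Ranked per length, the top nuclear gene was the short noncoding RNA Bc1 (lincRNA, chr7:144914470-144914637, GRCm38), at 27663 and 28512 TPM in the males and 30955 and 28853 TPM in the females. Bc1 is a polymerase III transcript of neurons that is carried into dendrites and acts on local translation. Its exon length of 168 bases makes this TPM sensitive to fragment size. The next were protein-coding genes of calcium signalling and glia. Calm2, which encodes calmodulin, averaged 3178 ± 342 TPM, and Calm3, which encodes the same protein, averaged 1651 ± 129 TPM. Sparcl1, a matrix protein secreted by astrocytes, averaged 3063 ± 93.8 TPM. Carboxypeptidase E (Cpe), which trims neuropeptides, averaged 3020.3 ± 214 TPM. Apolipoprotein E (Apoe), the lipid carrier made by astrocytes, averaged 2424 ± 142 TPM, and the protease inhibitor cystatin C (Cst3) averaged 2086 ± 238 TPM. Glutamine synthetase (Glul), which recycles glutamate in astrocytes, averaged 1931 ± 291 TPM.

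In all 45 nuclear genes had a mean TPM of at least 1000. Among them were housekeeping genes, such as the ribosomal protein Rplp1 at 2084 ± 65.6 TPM, the elongation factor Eef1a1 at 1859.8 ± 116 TPM and the chaperones Hsp90ab1 and Hspa8 at 1851 ± 145 TPM and 1379 ± 195 TPM. The ferritin heavy chain Fth1, which stores iron, averaged 1731 ± 274 TPM, and the sodium pump subunit Atp1b1 averaged 1617 ± 100.2 TPM. Neuronal genes of this rank included the axonal motor Kif5a at 1528 ± 66.6 TPM, the membrane protein Gpm6a at 1476 ± 129 TPM, the kinase inhibitor Camk2n1 at 1282 ± 154 TPM, Stmn3 at 1241 ± 79.2 TPM and the SNARE protein Snap25 at 1132 ± 115 TPM. Ttr, the thyroid hormone carrier of the choroid plexus, averaged 1610.3 ± 745 TPM, the widest relative spread of the 30 highest nuclear protein-coding genes. Counts of Atp1b1 are uncertain because other genes overlap 18.7% of its exon bases, since the strand setting of the counting is not given. The same limit holds for Igf2, Sox4, Snrpn, Mt2, Pmch, Nlgn3, Miat and Slc32a1, where other genes cover 64.5%, 54.6%, 44.1%, 73.5%, 58.1%, 41.2%, 32.1% and 24.9% of the exon bases in that order. For Ptbp1, Adora1, Adgrl1, Xist, Bdnf, Penk, Grin1 and Nkx6-2 that share ran from 12.9% to 20.7%. As families, 81 of 84 genes of the cytosolic ribosome had a mean CPM of at least 1 and summed to 22009.8 ± 564 TPM. The nuclear genes of oxidative phosphorylation summed to 17546 ± 891 TPM, with 91 of 94 at that CPM.

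In CPM, which is not divided by length, nuclear noncoding RNA was led by a few genes. Per length Bc1 stood above Meg3 and Malat1, at 28996 TPM on average against 1197 and 1131 TPM. Meg3 (chr12:109541001-109571726), an imprinted RNA expressed from the maternal chromosome, stood at 5762 and 5475 CPM in the males and 5166 and 7982 CPM in the females. Malat1, a nuclear RNA of splicing speckles, stood at 2237 and 2030.0 CPM in the males and 2489 and 2146 CPM in the females. The second female was the highest of the 4 in Meg3. Rian, from the same imprinted domain as Meg3, averaged 789.7 ± 16.3 CPM, and Miat averaged 395 ± 65.2 CPM. Snhg11 averaged 2769.7 ± 469 CPM and is annotated as protein-coding in this table. Of the list of long noncoding RNAs, 23 of 28 members in the table had a mean CPM of at least 1, and Rmrp and Rpph1, where other genes cover 100% and 73.0% of the exon bases, had no count. The imprinted list summed to 9558 and 9252 CPM in the males and 9067 and 13444 CPM in the females, of which Meg3 was the largest part, and the second female was the highest. Other imprinted genes of high level per length were Nap1l5 at 1124 ± 271 TPM, Snrpn at 869 ± 39.6 TPM and Nnat at 356 ± 144 TPM.

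Genes that hold a microRNA hairpin inside their body are one view of microRNAs that these libraries do not count directly. Of 1005 hairpins in the RefSeq table, 681 lay inside a gene on the same strand and 455 inside a gene with a mean TPM of at least 10. The 2 mature sequences below are shown because miR-128 is known as a neuronal and miR-338 as an oligodendrocyte microRNA, and the seed (bases 2 to 8) is in capitals. They were chosen with the values of their hosts known.
miR-128-3p: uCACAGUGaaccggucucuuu
miR-338-3p: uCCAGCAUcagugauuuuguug
The hairpins of miR-128 lie in Arpp21, a neuronal phosphoprotein gene, at 89.6 and 96.1 TPM in the males and 101 and 68.7 TPM in the females, and in R3hdm1, an RNA-binding protein gene, at 50.7 ± 1.90 TPM on average. The hairpin of miR-338 lies in Aatk, a kinase gene of brain, at 133 and 109.9 TPM in the males and 101 and 121 TPM in the females. These are levels of the host transcripts, and the mature microRNAs were not measured.

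Neuronal genes were even between libraries. In bulk tissue, fewer cells of a type and less RNA per cell cannot be told apart. The list of 16 pan-neuronal genes summed to 9181 and 8973 CPM in the males and 9266 and 8694 CPM in the females, and its highest library was 1.07 times its lowest. The synaptic vesicle and scaffold list summed to 14445 ± 576 CPM, with all 28 of 28 members at a mean CPM of at least 1. Within it the release machinery was highest, with Cplx1 at 874 ± 107 TPM, Vamp2 at 746 ± 66.2 TPM and Rab3a at 684 ± 30.3 TPM. Among synaptic adhesion genes, Nlgn2 of inhibitory synapses averaged 148 ± 15.4 TPM, while Nlgn1 and Nlgn3 averaged 20.1 ± 1.66 TPM and 15.2 ± 1.67 TPM. The list of immature neuron genes, which shares members with the pan-neuronal one, summed to 1664 and 1735 CPM in the males and 1655 and 1807 CPM in the females. Its members split. Gap43 of growing axons and Stmn1 averaged 711 ± 71.2 TPM and 543 ± 17.7 TPM, whereas Sox11 and Sox4, factors of newly born neurons, averaged 10.2 ± 1.06 TPM and 7.64 ± 1.40 TPM.

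Excitatory neurons were marked by Camk2a, the alpha subunit of the main kinase of the postsynaptic density, at 965 and 994 TPM in the males and 879.7 and 918 TPM in the females. Neurod6 and Tbr1, factors of cortical excitatory neurons, averaged 101 ± 13.3 TPM and 62.1 ± 7.43 TPM. Inhibitory neurons were marked by the enzymes that make GABA. Gad1 stood at 208 and 239 TPM in the males and 202 and 170.2 TPM in the females. Gad2 stood at 179 and 209 TPM in the males and 203 and 222 TPM in the females, and the vesicular transporter Slc32a1 averaged 112 ± 7.01 TPM. Their factors were lower, with Dlx1 at 29.6 ± 5.96 TPM and Lhx6 at 13.1 ± 1.27 TPM. The excitatory list ran from 3495 to 3849 CPM over the libraries and the inhibitory list from 1555 to 1749 CPM.

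Neuropeptides are cut from precursors that are stored in dense-core vesicles. Somatostatin (Sst), the peptide of a class of cortical inhibitory neurons, was the highest precursor at 902 and 873 TPM in the males and 752 and 878 TPM in the females. Penk, the enkephalin precursor of striatal neurons, averaged 508 ± 109 TPM, cholecystokinin (Cck) averaged 401 ± 56.9 TPM and neuropeptide Y (Npy) averaged 337 ± 31.2 TPM. The granins that help to form the vesicles were also high, with Pcsk1n at 754 ± 112 TPM, Chgb at 645 ± 27.0 TPM and Scg2 at 619.8 ± 74.8 TPM. In all 32 of 37 precursor genes had a mean CPM of at least 1, as did 63.3% of all protein-coding genes. Other precursors were far lower, such as Crh at 18.2 ± 3.54 TPM and Calca at 4.51 ± 1.36 TPM. The hypothalamic precursors Oxt and Avp differed most between libraries and are described with the brain regions.

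The promoter of Sst is shown because it is the highest neuropeptide gene here and holds the palindrome TGACGTCA, known as the cyclic AMP response element. The window at chr16:23890795-23891094 on the minus strand of GRCm38.p6 is written on the gene's strand, with the motif in capitals.
Sst: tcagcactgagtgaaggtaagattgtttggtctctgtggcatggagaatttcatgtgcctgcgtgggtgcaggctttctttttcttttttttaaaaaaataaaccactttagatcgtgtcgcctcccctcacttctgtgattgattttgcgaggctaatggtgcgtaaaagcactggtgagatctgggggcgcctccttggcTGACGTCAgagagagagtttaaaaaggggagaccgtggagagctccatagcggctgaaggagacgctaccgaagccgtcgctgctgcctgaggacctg
TGACGTCA was present in 2.43% of the 16521 windows on either strand and in 5.18% of those of the 1140 genes with a mean TPM of at least 100. The motif contains TGACGT, so every match to it also counts as a match to the shorter one.

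Transcription factors were grouped by symbol into 35 families. These hold 789 protein-coding genes, of which 594 had a mean CPM of at least 1, or 75.3%. Their median was 7.74 TPM, and 13 had a mean TPM of at least 100. Without the Zfp genes 273 of 424 had a mean CPM of at least 1, or 64.4%, and the median was 3.78 TPM. That share lies near the 63.3% of all protein-coding genes. The highest was the thyroid hormone receptor Thra, at 390.3 and 411 TPM in the males and 355 and 391 TPM in the females. Klf9, a factor that thyroid hormone and glucocorticoids induce, stood at 262 and 245 TPM in the males and 258 and 181 TPM in the females. Atf4, of the integrated stress response, averaged 176 ± 19.2 TPM. Id2 and Id4, which hold back bHLH factors, averaged 148 ± 11.9 TPM and 122 ± 11.9 TPM. The clock repressors Nr1d1 and Nr1d2 averaged 112 ± 17.0 TPM and 106 ± 7.97 TPM. Mef2d and Mef2c, factors of neuronal activity response, averaged 109 ± 6.94 TPM and 99.9 ± 8.83 TPM. Zfp365 averaged 294 ± 21.1 TPM and was counted as a factor by its symbol alone. Families differed widely in how many members were measured.

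All 4 of 4 nuclear factor I genes, 5 of 5 Zic genes, 8 of 8 Smad genes and 6 of 6 Bcl11, Satb and Fezf genes had a mean CPM of at least 1. The Zfp family had 321 of 365 members at that level and a summed level of 5466 ± 43.5 TPM, the largest sum of the 35 families. The nuclear receptors had 38 of 47 and a sum of 1298 ± 55.5 TPM. Some families that pattern the embryo stood at the other end, though the Zic genes above and the Otx and Emx genes (4 of 4) did not. Of the Hox genes, which specify position along the hindbrain and spinal cord, 3 of 39 had a mean CPM of at least 1 and 15 had no count. Of the Pax genes 3 of 9 did, led by Pax6 at 3.60 ± 0.563 TPM, and of the Nkx genes 4 of 14 did, led by Nkx6-2 at 22.4 ± 5.62 TPM. The proneural genes Neurog2 and Neurog1, which start neurogenesis, averaged 1.16 ± 0.531 TPM and 0.207 ± 0.239 TPM. Among SOX genes the highest was Sox2, a stem cell and glial factor, at 59.4 and 62.9 TPM in the males and 61.8 and 96.9 TPM in the females, with the second female the highest.

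Immediate-early genes are switched on within minutes by neuronal activity or handling. Their list of 14 summed to 1171 and 971 CPM in the males and 783 and 1036 CPM in the females, with the first male highest and the first female lowest, and all members had a mean CPM of at least 1. Egr1, a zinc finger factor, stood at 274 and 229 TPM in the males and 208 and 231 TPM in the females. Arc, a synaptic effector, stood at 309 and 218 TPM in the males and 126 and 211 TPM in the females. Both were highest in the first male. Nr4a1, a nuclear receptor, stood at 109 and 95.2 CPM in the males and 58.1 and 116 CPM in the females. Junb, a partner of Fos, stood at 46.8 and 48.9 CPM in the males and 33.0 and 80.0 CPM in the females. The second female had the highest Junb and Nr4a1, so the genes of the list did not share 1 order of libraries. Fos stood at 29.5 and 24.8 CPM in the males and 16.9 and 57.1 CPM in the females. Its promoter is shown because it is the textbook case of a rapidly induced gene. The window is chr12:85473640-85473939 on the plus strand of GRCm38.p6, and the capitals mark TGACGT and TATAAA.
Fos: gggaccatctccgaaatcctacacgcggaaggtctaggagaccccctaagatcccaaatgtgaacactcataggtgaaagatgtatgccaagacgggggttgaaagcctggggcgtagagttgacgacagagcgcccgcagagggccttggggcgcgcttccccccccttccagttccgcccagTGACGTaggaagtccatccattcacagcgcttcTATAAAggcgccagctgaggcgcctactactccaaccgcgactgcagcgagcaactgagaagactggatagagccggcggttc
TATAAA was found on either strand in 12.9% of the 16521 windows and TGACGT in 8.99%. Members of the list induced by glucocorticoids also spread, summing to 1368 and 1251 CPM in the males and 1175 and 945 CPM in the females, and were led by the metal-binding proteins Mt2 at 588 ± 162 TPM and Mt1 at 457 ± 43.8 TPM.

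**Figure D3:**
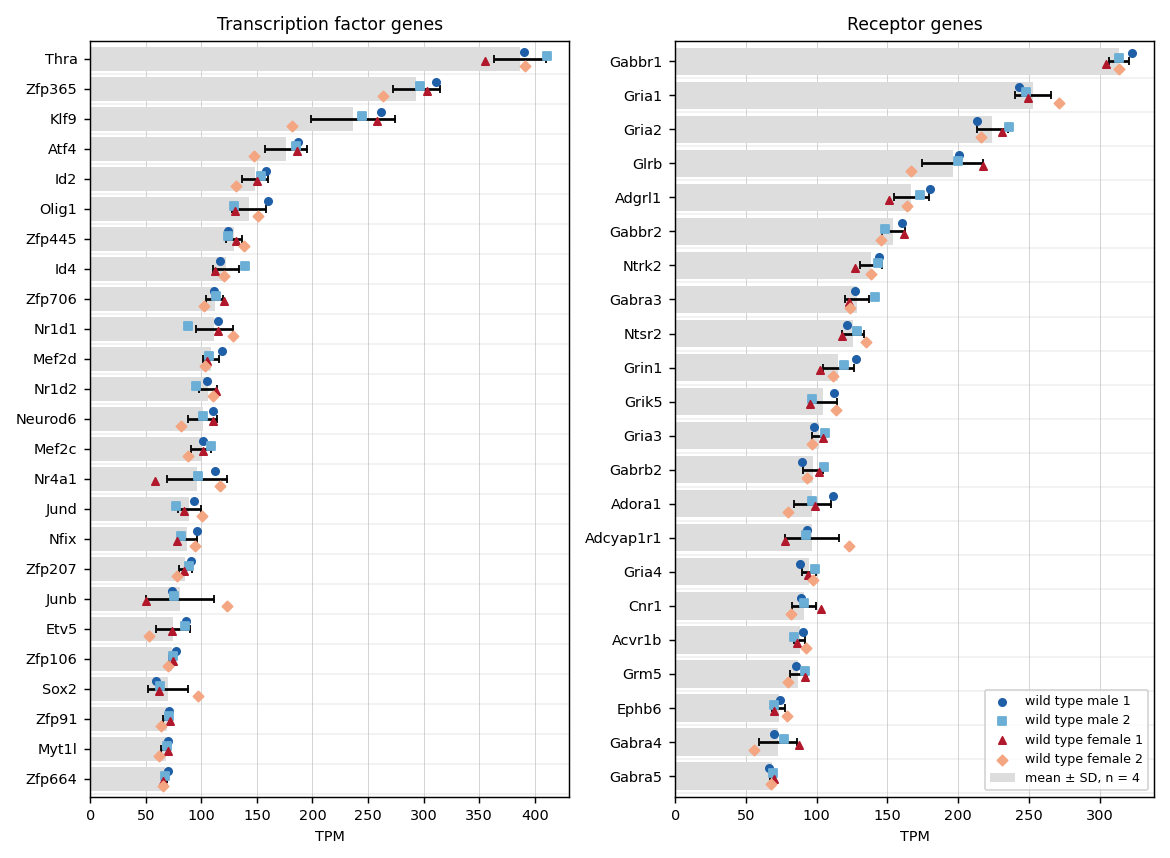
Mean TPM with SD (n = 4) of the 25 transcription factor genes (left) and of 22 of the 25 receptor genes (right) of highest mean TPM, with the 4 wild-type libraries as points on a linear axis. Thra at 387 TPM led the factors and Gabbr1 at 314 TPM the receptors.

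Receptors for GABA and glutamate led the receptor genes. Gabbr1 and Gabbr2, which together form the GABA-B receptor, averaged 314 ± 7.30 TPM and 154 ± 8.18 TPM. Of the AMPA receptor, the main fast glutamate receptor, Gria1 stood at 243 and 248 TPM in the males and 249.7 and 271 TPM in the females. Gria2, whose edited subunit keeps calcium out, stood at 213 and 236 TPM in the males and 231 and 216 TPM in the females. Gria3 and Gria4 averaged 101 ± 4.39 TPM and 94.5 ± 4.91 TPM. These 4 genes summed to 673 ± 20.8 TPM, against 267 ± 19.6 TPM for 7 NMDA receptor genes. The obligatory NMDA subunit Grin1 averaged 115 ± 10.9 TPM. Of GABA-A receptor genes 15 of 19 had a mean CPM of at least 1, or 78.9%, against 63.3% of all protein-coding genes. The GABA-A genes summed to 1068 ± 51.0 TPM. Among them Gabra3 averaged 129 ± 8.67 TPM and Gabra2 averaged 35.8 ± 3.97 TPM. Gabra6, the subunit of cerebellar granule cells, averaged 0.862 ± 1.25 TPM. Glrb, the beta subunit of the glycine receptor, averaged 196 ± 21.4 TPM, well above the alpha subunit Glra2 at 21.3 ± 4.44 TPM.

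Receptors of other kinds were led by Adgrl1, a latrophilin at synapses, at 167 ± 12.5 TPM, by Ntrk2, the receptor of BDNF, at 138 ± 7.84 TPM and by Ntsr2, a neurotensin receptor of astrocytes, at 126 ± 7.60 TPM. The adenosine receptor Adora1 averaged 96.8 ± 13.1 TPM, the cannabinoid receptor Cnr1 91.1 ± 8.63 TPM and the metabotropic glutamate receptor Grm5 87.0 ± 5.78 TPM. The dopamine receptor gene Drd1, of neurons of the direct striatal pathway, stood at 36.9 and 39.4 CPM in the males and 54.4 and 28.8 CPM in the females. Drd2, of the indirect pathway, stood at 29.7 and 23.1 CPM in the males and 38.3 and 20.4 CPM in the females. Both were highest in the first female and lowest in the second female. Without the chemosensory families, 214 of 250 receptor genes had a mean CPM of at least 1, or 85.6%. Of all protein-coding genes 63.3% did, but that share still counts the chemosensory genes. Chemosensory receptors were nearly silent. Of odorant receptors 3 of 1092 had a mean CPM of at least 1 and 891 had no count. Of vomeronasal receptors 4 of 328 and of taste receptors 2 of 38 reached that level.

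Ion channel genes were widely measured. Of the potassium channel genes 77 of 92 had a mean CPM of at least 1, or 83.7%, against 63.3% of all protein-coding genes. They were led by the beta subunit Kcnab2 at 191 ± 15.2 TPM. The astrocyte potassium channel Kcnj10 averaged 174 ± 20.4 TPM, against 10.5 ± 1.56 TPM for the neuronal channel Kcnj6. Sodium and calcium channel genes summed to 2586 ± 116 TPM. Tubb4a, at 1106 and 925 TPM in the males and 951 and 1012 TPM in the females, was the highest of 18 tubulin genes. Of the clustered protocadherins, which give neurons a surface identity, 52 of 56 had a mean CPM of at least 1, and the highest was Pcdhgc5 at 35.5 ± 6.46 TPM, a gene whose exon bases are all shared with other genes of its cluster. Histone genes of the clusters, whose messages mostly lack a poly(A) tail and rise in S phase, had 11 of 67 at that level. Among growth factors pleiotrophin (Ptn) averaged 383 ± 54.9 TPM, the intracellular FGF relatives Fgf12 and Fgf13 121 ± 12.3 TPM and 105 ± 3.63 TPM, and Bdnf 19.9 ± 4.57 TPM.

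Astrocyte genes summed to 9371 and 10317 CPM in the males and 9715 and 9619.8 CPM in the females. The glutamate transporters Slc1a2 and Slc1a3 averaged 739.5 ± 55.7 TPM and 249.6 ± 38.1 TPM, the glycolytic enzyme Aldoc 867 ± 55.2 TPM, the filament protein Gfap 157 ± 19.4 TPM and the water channel Aqp4 103 ± 9.55 TPM. Among radial glial genes, nestin (Nes) and tenascin C (Tnc) were low, at 5.59 ± 1.30 TPM and at 3.10 to 5.59 CPM. Fabp7 stood at 81.3 and 126 TPM in the males and 70.2 and 59.5 TPM in the females, highest in the second male. The radial glia list, which shares Slc1a3 with the astrocyte list, was not low as a whole. It summed to 1187 ± 127 CPM, and all 14 members found had a mean CPM of at least 1. Their median was 20.6 TPM, against 20.4 TPM over protein-coding genes at that CPM. Microglial genes summed to 409 and 436 CPM in the males and 479 and 429.5 CPM in the females. They were led by cathepsin S (Ctss) at 210.1 ± 20.8 TPM, with the homeostatic genes P2ry12 at 51.9 ± 9.21 TPM and Tmem119 at 23.1 ± 1.53 TPM. Border macrophage genes summed to 12.1 to 18.4 CPM, with Mrc1 at 2.32 ± 0.193 TPM.

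The endothelial list was highest in the first male. It summed to 446 and 408 CPM in the males and 406 and 411 CPM in the females, led by the glucose transporter Slc2a1, which astrocytes also express, at 106 ± 15.6 TPM and by Cldn5 of the blood-brain barrier at 42.8 ± 3.34 TPM. The pericyte and smooth muscle list summed to 230.4 ± 22.3 CPM, with Vtn at 77.4 ± 9.26 TPM. The meningeal list summed to 537 ± 12.3 CPM, led by Ptgds, also a gene of oligodendrocytes, at 896 ± 33.3 TPM, while Col1a1 averaged 3.82 ± 0.766 TPM. Adult globin marks blood left in the vessels, and Hbb-bs, whose copy Hbb-bt is nearly identical, stood at 51.1 and 89.0 CPM in the males and 57.5 and 51.0 CPM in the females.

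Tissues that could be carried along with a dissected brain were checked by their own lists. For skeletal muscle 5 of 10 genes had a mean CPM of at least 1 and the list summed to 11.2 to 17.3 CPM, with Myog at 0 counts. Cartilage and bone summed to 19.3 to 27.9 CPM with Bglap at 0 counts, and epidermis to 22.2 to 27.2 CPM with Flg at 0 counts. The pineal and retina list summed to 4.29 to 6.03 CPM, and lymphocyte genes to 7.16 to 10.1 CPM with Cd3d and Nkg7 at 0 counts. Neutrophil and mast cell genes had 0 of 10 members at that level. The peripheral ganglion and Schwann cell list summed to 49.4 ± 7.20 CPM. Pituitary hormone genes were found in the second female above all. Prolactin (Prl) stood at 0 and 0 CPM in the males and 0 and 9.50 CPM in the females. Growth hormone (Gh) stood at 0.0628 and 0.239 CPM in the males and 0 and 5.32 CPM in the females, and Pomc, a precursor made in pituitary and hypothalamus, at 1.00 and 1.43 CPM in the males and 1.56 and 12.7 CPM in the females. A value of 0 has the limit of 3 counts given for Hba-x in the same library.

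Region lists showed where the 4 libraries stood apart, and this bears on each difference between them. Cortical genes were even, at 748 and 747 CPM in the males and 772 and 674 CPM in the females. Hindbrain and spinal genes were not. Hox genes held 727 and 1 counts in the males and 6 and 14 counts in the females, or 45.7 and 0.239 CPM in the males and 0.373 and 0.944 CPM in the females. Slc6a5, the glycine transporter of inhibitory hindbrain and spinal neurons, stood at 41.8 and 0.954 CPM in the males and 0.436 and 13.5 CPM in the females. Counts of Hoxa5 were 122 and 0 in the males and 0 and 0 in the females. Counts of Hoxb8 were 130 and 0 in the males and 0 and 0 in the females. Without the first male, 0 of 39 Hox genes had a mean CPM of at least 1, against 3 of 39 over the 4 libraries. The first male held nearly all Hox counts and the highest Slc6a5, with the second female next in Slc6a5. The first male was also the lowest in choroid plexus genes, which summed to 547 and 1361 CPM in the males and 1460.2 and 1381 CPM in the females. Ttr stood at 165 and 677 CPM in the males and 691 and 625 CPM in the females. The mean of the choroid plexus list was 1187 CPM over 4 libraries and 1401 CPM without the first male.

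The second female stood apart in hypothalamic genes, which summed to 139.7 and 111 CPM in the males and 125 and 325 CPM in the females. Oxytocin (Oxt) stood at 6.84 and 4.77 CPM in the males and 11.6 and 91.9 CPM in the females. Vasopressin (Avp) stood at 16.8 and 4.77 CPM in the males and 9.84 and 57.2 CPM in the females. Otp, a factor that specifies neurons of both hormones, stood at 2.89 and 0.716 CPM in the males and 2.80 and 15.4 CPM in the females. The mean of the hypothalamic list was 175 CPM, and 125 CPM without the second female. All 3 genes were highest in the second female. Not every hypothalamic gene followed. Pmch, a peptide of the lateral hypothalamus, stood at 17.5 and 9.30 CPM in the males and 16.8 and 29.3 CPM in the females. Hcrt, a peptide of the same area, stood at 9.92 and 2.39 CPM in the males and 5.48 and 6.54 CPM in the females, highest in the first male. Ependymal genes, of the ventricle lining, were highest in the same library, at 21.9 and 28.4 CPM in the males and 36.5 and 66.5 CPM in the females. Striatal genes were lowest there, at 1229 and 1170.3 CPM in the males and 1553 and 890.5 CPM in the females, and highest in the first female.

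The second male, the shallowest library, was the highest in olfactory bulb and dopamine neuron genes. Cdhr1, a cadherin of mitral and tufted cells in the bulb, stood at 21.6 and 44.4 CPM in the males and 6.35 and 6.13 CPM in the females. Eomes, a factor of the same cells and of cortical progenitors, stood at 5.09 and 14.1 CPM in the males and 0.996 and 2.49 CPM in the females. Both males were above both females in Cdhr1 and Eomes. Tyrosine hydroxylase (Th), which makes dopamine in midbrain and bulb, stood at 19.8 and 39.8 CPM in the males and 9.71 and 25.5 CPM in the females. The dopamine transporter Slc6a3 stood at 19.3 and 52.2 CPM in the males and 12.9 and 28.1 CPM in the females. The olfactory bulb list summed to 217 and 323 CPM in the males and 163 and 231 CPM in the females, of which Calb2, a calcium-binding protein of many regions, had the highest TPM. The dopamine neuron list summed to 219.8 and 337 CPM in the males and 212 and 260.4 CPM in the females.

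The cerebellar list summed to 269.7 and 277 CPM in the males and 319.5 and 338 CPM in the females, with 11 of 15 members at a mean CPM of at least 1. It was led by Calb1, a calcium-binding protein of Purkinje cells and of forebrain neurons, at 111 and 119.7 TPM in the males and 138 and 125 TPM in the females. Cbln1, of granule cells and thalamus, averaged 33.3 ± 9.24 TPM. Members more restricted to the mature cerebellum were low. Pcp2, of Purkinje cells, stood at 0.754 and 1.19 CPM in the males and 1.81 and 0.539 CPM in the females. Gabra6, of granule cells, stood at 0.377 and 0 CPM in the males and 1.93 and 0.135 CPM in the females. Cbln3, of the same cells, stood at 2.26 and 0.716 CPM in the males and 2.30 and 0.809 CPM in the females. Zic1, a factor of granule cells and of other midline regions, averaged 67.2 ± 12.4 CPM. Serotonin and noradrenaline neuron genes were also low. Tph2, the enzyme of brain serotonin synthesis, stood at 3.96 and 0.954 CPM in the males and 0.809 and 4.99 CPM in the females. Dbh, the enzyme of noradrenaline synthesis, stood at 0.816 and 0 CPM in the males and 0.249 and 2.02 CPM in the females. Other genes overlap 51.5% of the exon bases of Pcp2. The labels give no dissection border, and the part that it plays in these values was not tested.

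**Figure D4:**
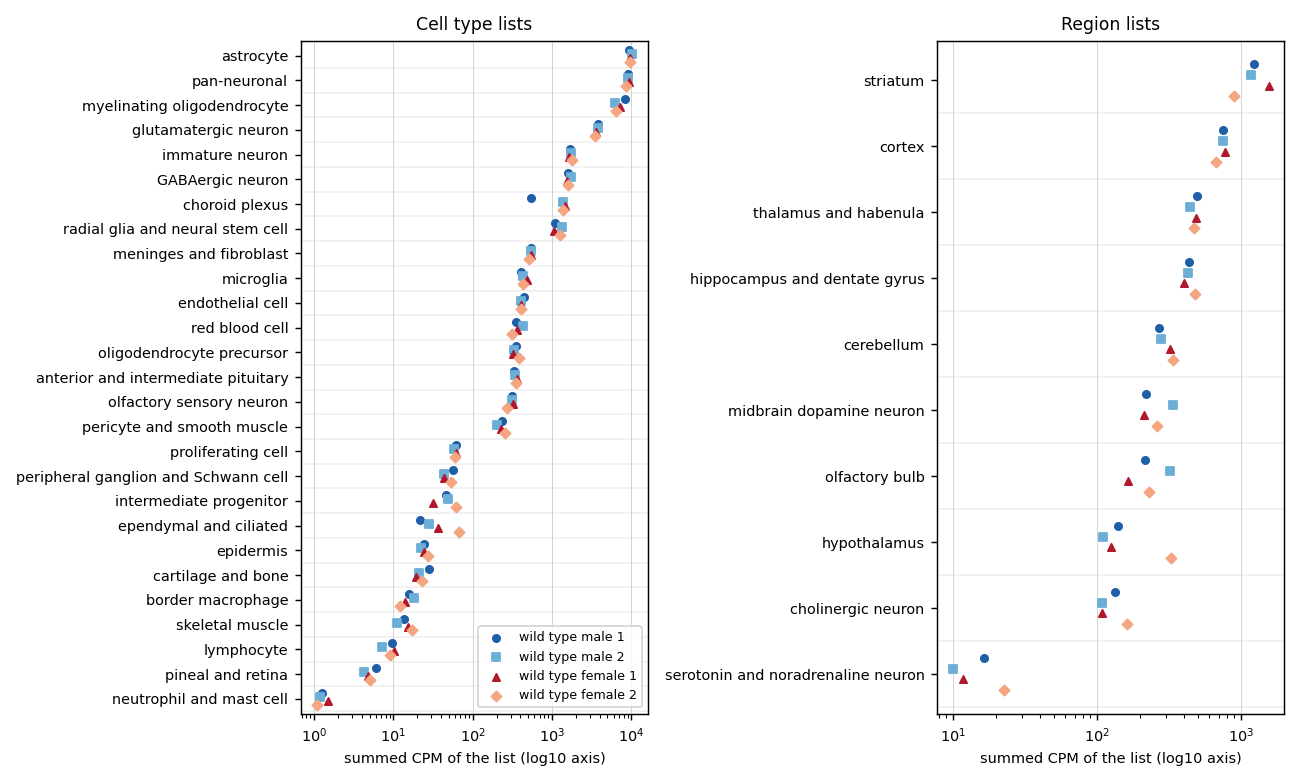
Summed CPM on a log10 axis of cell type lists (left) and region lists (right), with 1 point per wild-type library and males above females in the legend. Pan-neuronal and cortical lists overlap closely, while choroid plexus (547 to 1460 CPM) and hypothalamus (111 to 325 CPM) spread.

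Most genes varied little between the 4 libraries. Among 12128 genes with a mean CPM of at least 5, the SD of log2(CPM + 0.5) had a median of 0.13, and 77.7% of these genes had an SD under 0.2. An SD of at least 1 was found for 26 genes, 8 of them on the X or Y chromosome. The library farthest from the median was the second female for 14 of them. Y-linked genes and Xist headed the order, followed by Slc6a5, Oxt and mt-Nd4l. Irs4, an insulin receptor substrate of hypothalamus, stood at 7.79 and 9.30 CPM in the males and 11.5 and 50.9 CPM in the females. Sytl4, of secretory granules, stood at 4.58 and 1.91 CPM in the males and 3.61 and 14.2 CPM in the females. Gabre, a GABA-A receptor subunit, stood at 2.07 and 2.39 CPM in the males and 3.11 and 12.5 CPM in the females. Irs4, Sytl4 and Gabre were highest in the second female, which also led in Oxt, Avp and Otp. Doc2g stood at 7.41 and 16.7 CPM in the males and 1.81 and 2.49 CPM in the females, but other genes overlap 63.5% of its exon bases. The receptor gene Gabbr1 and the factor gene Thra were even, with SDs of 0.018 and 0.076 on that scale.

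**Figure D5:**
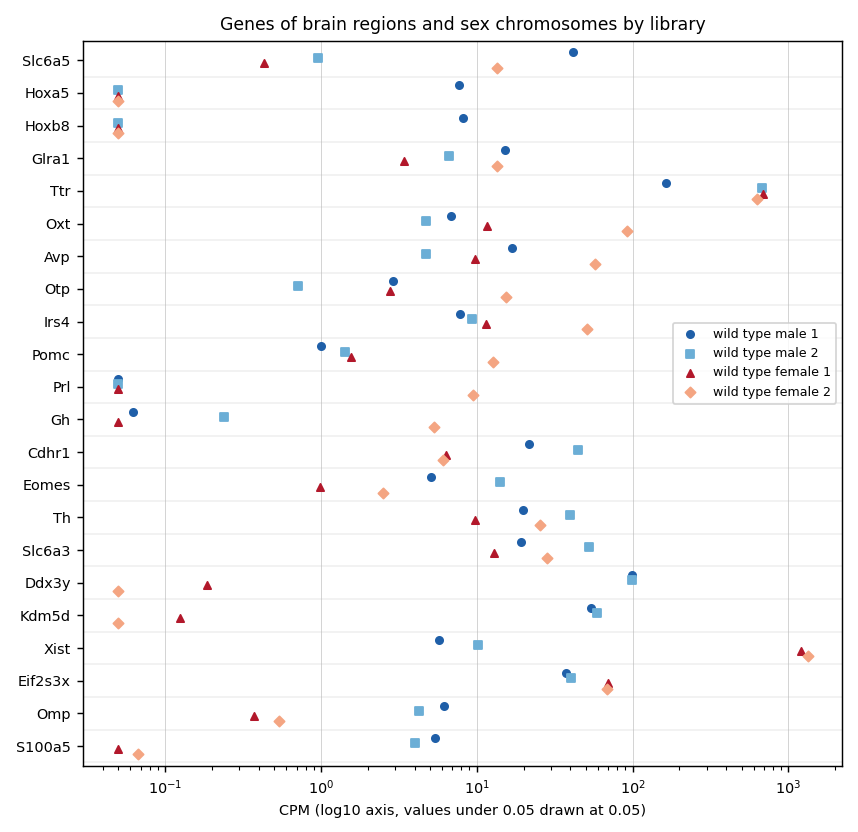
CPM on a log10 axis (values under 0.05 drawn at 0.05) of genes of brain regions and of the sex chromosomes in each wild-type library. Slc6a5 and Hoxb8 are highest in the first male, Oxt, Avp and Otp in the second female, and Cdhr1 and Eomes in the second male, while Ddx3y, Kdm5d and Xist separate males from females.

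Males were compared with females among the wild-type libraries with edgeR's quasi-likelihood test (2 against 2, two-sided, Benjamini-Hochberg adjustment). Of 17285 genes tested, 15 had an adjusted p under 0.05, or 0.0868%. Of these 11 were higher in males, or 0.0636%, and 4 were lower in males, or 0.0231%. An unadjusted p under 0.05 was found for 843 of the 17285 genes, about the share that this threshold passes when no gene differs. Sex-chromosome genes matched the sex labels in all 4 libraries. The Y-linked helicase Ddx3y stood at 99.8 and 98.5 CPM in the males and 0.187 and 0 CPM in the females (edgeR adjusted p = 8.27e-09). The initiation factor gene Eif2s3y stood at 71.1 and 70.1 CPM in the males and 0.124 and 0 CPM in the females (edgeR adjusted p = 9.1e-09). Kdm5d, a histone demethylase, stood at 53.9 and 58.9 CPM in the males and 0.124 and 0 CPM in the females. Uty, of the same enzyme class, stood at 26.5 and 31.7 CPM in the males and 0.0622 and 0 CPM in the females. Of the 9 Y-linked genes listed, 4 had a mean CPM of at least 1, while Sry, Usp9y and Zfy2 had no count.

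Xist, the RNA that coats and silences an X chromosome in females, stood at 5.78 and 10.3 CPM in the males and 1209 and 1333 CPM in the females. Its log2 fold change was -7.46 ± 0.211, adjusted p = 6.61e-09 (edgeR). Of the list of genes that escape that silencing, with Xist, 2 passed the threshold, both lower in males. Eif2s3x, the X-linked partner of Eif2s3y, stood at 37.6 and 40.3 CPM in the males and 69.2 and 68.8 CPM in the females, with a log2 fold change of -0.82 ± 0.117, adjusted p = 0.0279 (edgeR). Ddx3x stood at 296 and 290.1 CPM in the males and 436 and 465 CPM in the females and missed the threshold (edgeR adjusted p = 0.0954). Kdm6a stood at 38.6 and 42.2 CPM in the males and 58.4 and 63.8 CPM in the females and missed it too (edgeR adjusted p = 0.252). Frmd7, another X-linked gene, was higher in males, at 6.22 and 9.54 CPM in the males and 1.93 and 1.62 CPM in the females (edgeR adjusted p = 0.046). Counts of the Y-linked gene model Gm29650 were 63 and 15 in the males and 0 and 0 in the females (edgeR adjusted p = 0.00196).

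On the autosomes and the mitochondrial genome 7 genes passed the threshold. Omp, the olfactory marker protein, stood at 6.22 and 4.29 CPM in the males and 0.373 and 0.539 CPM in the females (log2 fold change 3.58 ± 0.410, adjusted p = 0.00386, edgeR). S100a5, a calcium-binding protein of olfactory neurons, stood at 5.40 and 4.06 CPM in the males and 0 and 0.0674 CPM in the females (edgeR adjusted p = 0.00085). Cdhr1 had a log2 fold change of 2.34 ± 0.289, adjusted p = 0.00737 (edgeR). These values stand beside olfactory bulb sums of 217 and 323 CPM in the males and 163 and 231 CPM in the females. The olfactory sensory neuron list, which holds Omp, did not separate the sexes, at 310.0 and 312 CPM in the males and 321 and 269 CPM in the females. Its members of highest TPM were Gnal, Lhx2, Adcy3 and Gng13. Omp made up only a small part of that sum, which therefore hardly follows Omp. The part of tissue makeup in these calls was not tested. The mitochondrial pseudogene Gm13340 was lower in males at -2.10 ± 0.111, adjusted p = 1.47e-06 (log2, edgeR), and mt-Te, a mitochondrial tRNA, at -0.82 ± 0.126, adjusted p = 0.046 (log2, edgeR). The remaining genes were Ms4a15, at 2.07 and 5.25 CPM in the males and 0.124 and 0 CPM in the females (edgeR adjusted p = 0.046), and Gm6254, at 4.33 and 2.39 CPM in the males and 0.373 and 0.539 CPM in the females (edgeR adjusted p = 0.046). A fit of all 7 libraries had genotype and sex in the model (edgeR). In it 783 of 16709 genes of any chromosome had an unadjusted p under 0.05, again about the share passed when no gene differs. The filter on low counts left S100a5 out of that fit. After adjustment 8 genes passed, 7 of them among the 15, and 0 lay outside the X and Y chromosomes. In the wild-type fit the count was 51 without the first male, 126 without the second male, 1441 without the first female and 170 without the second female, where the lone library is assumed to vary like the pair of the other sex.

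Promoter composition differed with expression level across genes. Among the 1140 protein-coding genes with a mean TPM of at least 100 that had a RefSeq window, the median GC content was 61.7% and the median observed over expected ratio of CpG was 0.796. Among the 2748 genes with no count these were 42.3% and 0.131. Genes under 1 TPM lay between, at 51.2% and 0.256. TATAAA on either strand was found in 7.11% of windows at 100 TPM or more and in 30.8% of windows of genes with no count. CTTTGT was found in 12.7% of windows at 100 TPM or more and in 25.2% of those with no count. TGACGT ran the other way, at 15.7% of windows at 100 TPM or more and 3.09% of those with no count. These shares describe letters in the windows and show no regulation. Of the 4062 protein-coding genes with no count, with or without a window, 891 were odorant and 280 vomeronasal receptor genes. Expression level is therefore not separated from gene family here.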

How the data were processed

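RNA of brains was sequenced after depletion of ribosomal RNA, per the labels' protocols. The authors deposited raw read counts per gene. The submitters' processing notes name FastQC, Trim Galore, HISAT2, featureCounts, edgeR and mm10. Their versions, the strand setting and the treatment of multiply matching reads are not given in those sources. All of the 55536 gene IDs, symbols and biotypes matched GENCODE mouse release 21, whose exon unions gave lengths and positions (GRCm38).

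CPM divides by the library's total count and TPM also by length. Of the 4 libraries, total counts ran from 4192021 to 16064644. Intervals were not needed, and the limit for a count of 0 (3 counts) covers counting error only. Sex was tested with edgeR 4.0.16 (R 4.3.3; filterByExpr, TMM, glmQLFit, glmQLFTest) on the counts, with DESeq2 1.42.0 as an alternative. The test was checked on simulated data. Spread between libraries is the SD of log2(CPM + 0.5). A list's level is the sum over its members.

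The libraries, gene lists, pairs and families were chosen with earlier results of these data known. Genes named are the highest by TPM or CPM overall and in each list, family or biotype, the members of all pairs, those of largest spread, and those that passed the sex test. Lower members named beside them, such as Gal3st1, Nes and Tnc, were chosen after their values were seen. Promoter windows and microRNA sequences are RefSeq's. Other scalings, filters, a thinning to 4192021 counts and the omission of each library were tried as alternatives. Some genes of the lists and figures are not reported here by name. The mutant libraries entered only the check of the age label and the alternative fit of all 7 libraries.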

Additional observations from a re-analysis of the deposited data

Results flagged for a closer look

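Within the 4 wild-type libraries, 30 of 304 quantities had a highest or lowest library whose gap to the next, divided by the whole range, exceeded Dixon's 95% critical value. Chance flags about 1 in 20 such groups. Some of the quantities are genes named for their large spread between these same libraries, such as Irs4. The number flagged can therefore not be weighed against that rate. The library that stood apart was the first male for 8, the second male for 3, the first female for 2 and the second female for 17. Many of these quantities share genes or cells, so the flags are not independent of each other. No cause was tested.

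The first male had the lowest sum of choroid plexus genes, at 547 CPM, against 1361 to 1460.2 CPM in the other 3 libraries. Its Ttr was likewise lowest, at 165 CPM against 625 to 691 CPM. Its Hox genes summed to 45.7 CPM, against 0.239 to 0.944 CPM elsewhere. Within that sum Hoxa5 stood at 7.66 CPM and Hoxb8 at 8.16 CPM, with 0 counts of both genes in the others. The endothelial list was highest there at 446 CPM, against 406 to 411 CPM. The pseudogene Gm28661 was highest at 184 CPM, against 33.9 to 43.9 CPM. The ratio of Map1b over Map2 was highest at -0.24 on the log2 scale, against -0.44 to -0.42.

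The second male had the fewest counts in total, 4192021, against 14838099 to 16064644. It had the lowest Cnp, at 263 CPM against 293 to 297 CPM, and the highest Gabra3, at 155 CPM against 137 to 139 CPM. The first female had the highest Ctss, at 93.5 CPM against 75.4 to 77.1 CPM, and the highest Stmn1, at 312 CPM against 285 to 289.6 CPM.

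The second female had the highest sum of hypothalamic genes, at 325 CPM against 111 to 139.7 CPM. Oxt stood at 91.9 CPM there, against 4.77 to 11.6 CPM. Otp stood at 15.4 CPM, against 0.716 to 2.89 CPM, and Irs4 at 50.9 CPM, against 7.79 to 11.5 CPM. Gabre stood at 12.5 CPM, against 2.07 to 3.11 CPM. Of the pituitary hormone genes, Pomc stood at 12.7 CPM, against 1.00 to 1.56 CPM. Prl stood at 9.50 CPM with 0 counts in the other libraries, and Gh at 5.32 CPM, against 0 to 0.239 CPM. The imprinted list summed to 13444 CPM, against 9067 to 9558 CPM. Snhg11 stood at 3473 CPM, against 2505 to 2563 CPM. Sox2 stood at 56.3 CPM, against at most 36.4 CPM, and tenascin C (Tnc) at 5.59 CPM, against 3.10 to 3.49 CPM. Ptbp1 stood at 39.6 CPM, against 26.8 to 28.9 CPM. The same library was lowest in the myelin gene Mal, at 215 CPM against 293 to 308 CPM. It was also lowest in Atf4, at 98.4 CPM against 122 to 125 CPM, in Id2, at 90.2 CPM against 105 to 107 CPM, and in Pcna, at 29.0 CPM against 32.2 to 32.3 CPM.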

How the results depend on the processing

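The 15 genes that differed between males and females came from 2 libraries against 2, and this count moved most with the processing. DESeq2 size factors in edgeR gave 15 genes, the total counts as scaling 11, DESeq2's Wald test 19 and a minimum mean CPM of 1 gave 11. Without a filter on low counts the number was 195, and with all 7 libraries it was 8. Leaving out 1 library at a time gave 51 to 1441 genes. With the replicate number as a block it was 39. Same-numbered libraries did not deviate together (correlation 0.006). That value comes from 1 pair of libraries in each sex and cannot show what the numbers share. Ddx3y, Eif2s3y, Kdm5d, Uty, Gm29650 and Xist passed in 11 of 11 alternatives, and Eif2s3x, Omp, Cdhr1 and Gm13340 in 10. Frmd7 and Ms4a15 passed in 8, and Gm6254 and mt-Te in 7. S100a5 passed in 10 of 10, because the filter on low counts left it out of the fit of all 7 libraries. In that fit 0 genes outside the X and Y chromosomes passed. Without genes of the mitochondrial genome, protein-coding genes, 96.5% of counts with that genome, took 97.1% and the 100 top genes 13.3% in place of 19.3%. Per length the 100 top genes took 36.4%, protein-coding genes 89.8%, lincRNAs 3.75% in place of 1.59%, and mitochondrial rRNA 2.59% in place of 0.889%. Counts not divided by length turned 3 ratios of paired genes to the other sign, Ncam1 over Mag at 0.42 against -0.67, Pdgfra over Mog at 0.081 against -2.47, and Gria2 over Gria1 at 1.19 against -0.17. These moves follow from how the alternatives are built, except those of the sex count, whose cause was not tested. The number of genes at a mean CPM of at least 1 stayed within 1.5 times of 15858 in 9 of 9 alternatives, and that of genes with an SD of at least 1 in 6 of 6. The second male, with 4192021 counts, limits what can be said of genes at a few CPM.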
